A study of Mus musculus with 12 samples.

Results

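Macrophage markers were read in RNA from isolated mouse cardiomyocytes. The 10 genes examined were C1qa, C1qb, C1qc, Mrc1, Csf1r, Cd68, Lyve1, Timd4, Adgre1 and Cd163. They were chosen by name as markers of resident and recruited macrophages, with earlier results of these data known. The shares of all genes set beside their counts below are thus description. All 10 were found among the 22584 genes of the deposited count table. The series is titled as a study of telomere recapping gene therapy for cardio-renal syndrome, and it holds 12 polyA RNA-seq libraries of cells labelled as cardiomyocytes from hearts of wild-type (WT) C57BL6 mice, 3 in each of 4 groups. Sham saline mice had a sham operation for 12 weeks and saline, and sham JV001 mice had the same operation for 12 weeks and JV001, an agent known here by its code name only. CKD saline mice were uninephrectomised, put on high salt food and given angiotensin II, with saline as the injection and no duration stated, and CKD JV001 mice had the same 3 insults for 12 weeks with JV001. The labels do not say whether the 3 libraries of a group came from separate animals, so the spread behind every p-value is that between libraries and may be technical.

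Resident macrophages of the heart lie between the muscle cells, where they clear debris and dying cells, and a part of them is seeded before birth and renews locally. Monocytes that arrive from the blood through the chemokine receptor Ccr2 add to them after injury. Macrophages depend on signalling through the Csf1 receptor and are a main source of C1q, the recognition molecule of the classical complement pathway, and Lyve1, Timd4 and Cd163 are used to mark the resident cells.

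The labelled cell type was checked first. The 8 ventricular cardiomyocyte genes of the marker list, among them Myh6 and Ttn, summed to between 19474 and 77849 counts per 1000000 (CPM; counts divided by the library total after TMM scaling) in the 12 libraries. The 10 macrophage markers summed to between 28.4 and 725.6 CPM. Library totals ran from 25233561 to 37000337 counts, so that 3 counts, the limit that a count of 0 allows, stood for 0.0777 to 0.119 CPM, counting error only. No macrophage marker was at 0 in any library, and all 10 passed the filter on low counts that left 15004 genes for testing. Libraries of a group differed widely: CKD saline 1 and 2 were the closest pair of the series, with a chi-square per gene of 8.18, which is still above sampling noise, against 23.7 to 367 for the other within-group pairs. In 3 groups 1 library stood apart: sham saline 1 (255 and 226 against the other 2, which were 28.1 from each other), CKD saline 3 (193 and 191) and CKD JV001 3 (315 and 367).

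Mean levels of the macrophage markers were highest in CKD hearts given JV001 and lowest in sham hearts given saline, and none of the differences passed the test over all genes with all 12 libraries. Group means lay in the order sham saline, sham JV001, CKD saline, CKD JV001 for 8 of the 10 genes, and Lyve1 and Cd163 differed only in that CKD saline lay below sham JV001. All 10 were highest in the library CKD JV001 3, and 9 of 10 were lowest in sham saline 3, Timd4 being lowest in CKD saline 1. The spread within CKD saline was close to the mean for several genes, as for C1qa at 22.3 ± 22.5 CPM and Csf1r at 31.7 ± 27.5 CPM (SD, n = 3 each). In all 10 genes CKD saline 3 lay at or above the lowest CKD JV001 library, while CKD saline 1 and 2 both lay within the range of the sham libraries in 9 of 10. In bulk RNA, fewer cells of a type and less RNA per cell cannot be told apart.

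**Figure D1:**
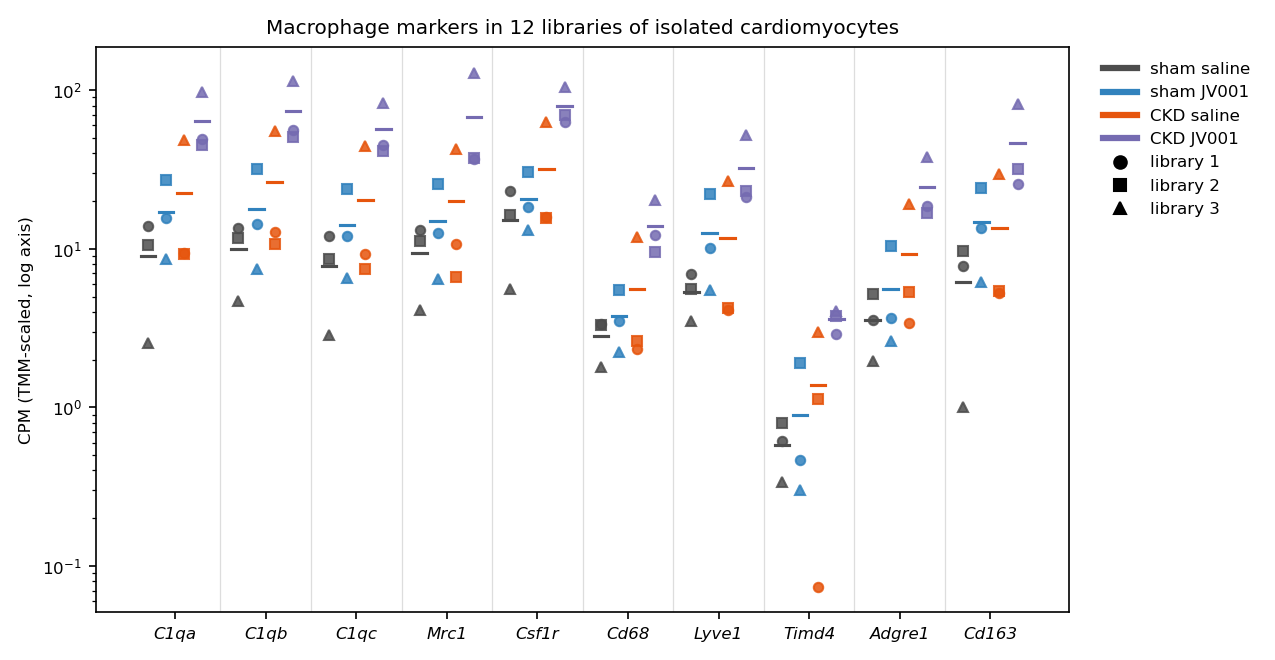
Level of each macrophage marker in each of the 12 libraries, in TMM-scaled CPM on a log axis; points are libraries, shaped by library number, horizontal bars are group means and colours are the 4 groups. Every gene is highest in CKD JV001 3 (for C1qb, 115 CPM), and CKD saline 3 lies among the CKD JV001 libraries, apart from CKD saline 1 and 2.

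Levels compared between genes need a value per length, for which the deposited FPKM (fragments per kilobase of transcript and per 1000000 fragments) was used. Mean FPKM over the 12 libraries was 29.9 for C1qb, 26.9 for C1qa and 22.7 for C1qc, so the 3 C1q genes led. Csf1r followed at 9.74, then Lyve1 at 6.13, Mrc1 at 5.46, Cd68 at 5.40, Cd163 at 4.63, Adgre1 at 3.30 and Timd4 at 0.730. C1qc lay above Csf1r in 12 of 12 libraries and Adgre1 above Timd4 in 12 of 12, which made these the firm steps. C1qb lay above C1qa in 9 of 12 libraries. Mrc1 lay above Cd68 in only 3 of 12, although its mean was higher, and CKD JV001 3 held 26.1 FPKM of Mrc1 against 17.5 FPKM of Cd68.

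C1qa, C1qb and C1qc encode the 3 chains of C1q, which binds immune complexes and dying cells. They lie side by side on mouse chromosome 4 in the order C1qb, C1qc, C1qa. C1qb measured 13.5, 11.7 and 4.71 CPM in libraries 1 to 3 of sham saline, the order kept below, and 14.3, 31.6 and 7.48 CPM with JV001. The CKD saline libraries held 12.8, 10.7 and 55.1 CPM and those with JV001 56.1, 51.0 and 115 CPM. The 3 CKD JV001 libraries lay above all 6 sham libraries, and 1 CKD saline library lay among them. C1qa means ran from 9.01 ± 5.86 CPM (SD, n = 3) in sham saline to 64.2 ± 29.3 CPM in CKD JV001. C1qc means ran from 7.83 ± 4.65 to 56.5 ± 23.4 CPM across the same 2 groups. As a share of the summed counts of the 10 markers, C1qc varied between 10.05% and 13.6% over the 12 libraries, a 1.35-fold range, although its CPM spanned 29.3-fold. C1qb varied between 12.7% and 17.5% and C1qa between 8.95% and 14.9% of the same sum.

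PU.1, an ETS factor of the myeloid lineage, is known to bind a GAGGAA core. The stretches before the start of C1qb, C1qc and Mrc1 are shown. Among the 6 stretches read, only these hold both GAGGAA and GGAAGT, so they do not stand for the rest. Each runs from 250 bases before the start to the base before it, 5′ to 3′ on the gene's strand, from the RefSeq table of build GRCm38.p6, with chr4:136886201-136886450 (minus strand) for C1qb, chr4:136892915-136893164 (minus strand) for C1qc and chr2:14229164-14229413 (plus strand) for Mrc1. Capitals mark GAGGAA and GGAAGT, the ETS core, on either strand; in C1qc the matches overlap.
C1qb: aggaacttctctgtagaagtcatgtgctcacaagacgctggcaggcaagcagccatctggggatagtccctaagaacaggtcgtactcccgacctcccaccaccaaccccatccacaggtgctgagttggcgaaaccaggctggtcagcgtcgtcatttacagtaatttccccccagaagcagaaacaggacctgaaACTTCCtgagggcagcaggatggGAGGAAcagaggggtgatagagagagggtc
C1qc: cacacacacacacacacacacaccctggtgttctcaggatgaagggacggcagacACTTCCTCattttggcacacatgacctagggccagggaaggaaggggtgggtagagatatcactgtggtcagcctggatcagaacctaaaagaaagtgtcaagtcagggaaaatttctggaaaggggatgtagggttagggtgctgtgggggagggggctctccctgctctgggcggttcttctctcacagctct
Mrc1: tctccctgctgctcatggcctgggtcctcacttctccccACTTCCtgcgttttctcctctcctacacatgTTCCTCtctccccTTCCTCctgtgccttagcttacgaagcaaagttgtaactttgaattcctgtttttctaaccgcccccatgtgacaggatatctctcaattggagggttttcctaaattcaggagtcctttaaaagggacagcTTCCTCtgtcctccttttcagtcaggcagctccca
Windows were read for 6 of the 10 genes (C1qb, C1qc, Mrc1, Cd68, Timd4 and Cd163), and C1qa, Lyve1 and Adgre1 had no entry. Csf1r has no window here because entries on its chromosome were left out for the markers. They were kept in the shares over all windows. GAGGAA was found in 4 of the 6 windows (C1qb, C1qc, Mrc1, Cd68), against 23.25% of all 32851 windows of this length. GGAAGT was found in 4 of 6 (C1qb, C1qc, Mrc1, Timd4), against 19.74%. TGANTCA, the AP-1 site, was found in Cd68 only, against 6.749%, and TGCTGA, part of a MAF site, in C1qb and Timd4, against 16.08%. CACGTG and TGACGTCA were found in 0 of 6, against 6.021% and 1.546% of all windows. In C1qb the GAGGAA match begins 30 bases before the start, and Mrc1 holds 3 matches, the nearest 35 bases before it. These are letters in a window, and binding was not measured.

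Csf1r, the receptor for Csf1 and Il34 on which macrophage survival depends, measured 23.3, 16.4 and 5.54 CPM in the saline libraries of sham hearts and 18.4, 30.3 and 13.2 CPM in their JV001 libraries. CKD hearts held 15.9, 15.7 and 63.4 CPM under saline and 62.6, 70.1 and 105 CPM under JV001. The CKD JV001 libraries lay above every sham library and CKD saline 3 was level with the lowest of them. Csf1r shares its locus with Hmgxb3 on the opposite strand in the GENCODE M21 annotation, and whether the counting used strand was not stated in the sources used here. Hmgxb3 measured between 17.5 and 26.7 CPM in all libraries, and its log2 fold change between CKD JV001 and sham JV001 was -0.18 (SE 0.17, adjusted p = 0.478, edgeR).

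Adgre1, which encodes the F4/80 antigen of mouse macrophages, measured 3.53, 5.20 and 1.97 CPM in the saline libraries of sham hearts and 3.68, 10.3 and 2.60 CPM in their JV001 libraries. Under CKD it was at 3.40, 5.34 and 19.2 CPM with saline and 18.7, 16.7 and 37.8 CPM with JV001. Here too the CKD JV001 libraries lay above every sham library, and CKD saline 3 lay among them. Cd68, a glycoprotein of the macrophage lysosome, had means of 2.82 ± 0.892 CPM for saline and 3.75 ± 1.66 CPM for JV001 in sham hearts (SD, n = 3 each). Its CKD means were 5.59 ± 5.41 CPM for saline and 14.02 ± 5.61 CPM for JV001. Its range over libraries, 11.4-fold, was the narrowest of the 10 genes in CPM.

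Mrc1, the mannose receptor CD206, was high in 1 library. The sham hearts held 13.2, 11.1 and 4.09 CPM under saline and 12.6, 25.6 and 6.42 CPM under JV001. For CKD hearts the values were 10.7, 6.60 and 42.5 CPM under saline and 37.1, 37.3 and 129 CPM under JV001. CKD JV001 3 thus lay far above the other 2 libraries of its group. The ratio of Mrc1 to Csf1r counts was 1.22 in that library, against 0.592 and 0.533 in CKD JV001 1 and 2 and at most 0.845 in any other library. Its share of the summed marker counts was 17.8% there and 9.63% to 14.6% in the others. The microRNA gene Mir511 lies within Mrc1 on the same strand and was not separated from it.

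Cd163, the haemoglobin scavenger receptor, measured 7.81, 9.62 and 1.01 CPM in the saline libraries of sham hearts and 13.5, 24.3 and 6.18 CPM in their JV001 libraries. With saline the CKD libraries held 5.29, 5.41 and 29.7 CPM, against 25.6, 31.8 and 81.2 CPM with JV001. It had the widest range of the 10 genes in CPM, 80.4-fold, set by the low library sham saline 3. Its share of the marker counts was 10.5% to 13% in the sham JV001 libraries, against 3.56% to 11.6% in sham saline and 7.21% to 8.63% in CKD saline. In CKD JV001 it was 7.76% to 11.2%, which overlapped the range of sham JV001.

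Lyve1, a hyaluronan receptor of resident macrophages and of lymphatic endothelium, measured 6.91, 5.57 and 3.52 CPM in the saline libraries of sham hearts and 10.1, 22.3 and 5.51 CPM in their JV001 libraries. The CKD values were 4.11, 4.25 and 26.8 CPM for saline and 21.2, 23.3 and 52.1 CPM for JV001. It was the only marker of the 10 whose CKD JV001 and sham JV001 libraries overlapped, sham JV001 2 lying above CKD JV001 1. As a share of the marker counts Lyve1 made up 9.74%, 10.96% and 9.33% in sham JV001 and 6.42%, 7.05% and 7.19% in CKD JV001, which did not overlap. It made up 7.03%, 6.72% and 12.4% in sham saline and 5.60%, 6.21% and 7.80% in CKD saline, which did. The 6 lymphatic endothelial markers, all above 0 in every library, summed to 77.7 to 85.3 CPM in sham JV001 and 103 to 140 CPM in CKD JV001, with 5 of 6 positive and a median log2 fold change of 1.42, beside 1.35 for Lyve1. Among them Pdpn had a log2 fold change of 2.10. Prox1, a transcription factor of lymphatic endothelium, had a mean of 48.0 CPM in sham JV001 and 24.2 CPM in CKD JV001 (log2 fold change -0.99, SE 0.47, adjusted p = 0.194, edgeR). It had the highest mean of the 6 over all libraries, 46.5 CPM, and is part of the sums above. Whether its reads came from lymphatic cells was not tested. EdgeR called none of the 6, and 5 had an unadjusted p under 0.05 with a higher level, against 14.8% of all genes. DESeq2 called 3 higher, against 7.46%, and limma voom 5 higher, against 16.8%, and 1 lower. The part of lymphatic cells in the Lyve1 values was not tested.

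Timd4, a phosphatidylserine receptor of long-lived resident macrophages, was the least abundant. Its raw counts in sham hearts were 19, 30 and 13 under saline and 15, 68 and 10 under JV001. In CKD hearts they were 2, 34 and 75 under saline and 91, 143 and 139 under JV001. Its mean level was 0.581 ± 0.231 CPM in sham saline (SD, n = 3) and 3.58 ± 0.625 CPM in CKD JV001. The CKD JV001 libraries lay above all sham libraries, and CKD saline 3, at 2.98 CPM, lay just above CKD JV001 1, at 2.88 CPM. CKD saline 1, at 0.0740 CPM, rested on 2 counts.

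**Figure D2:**
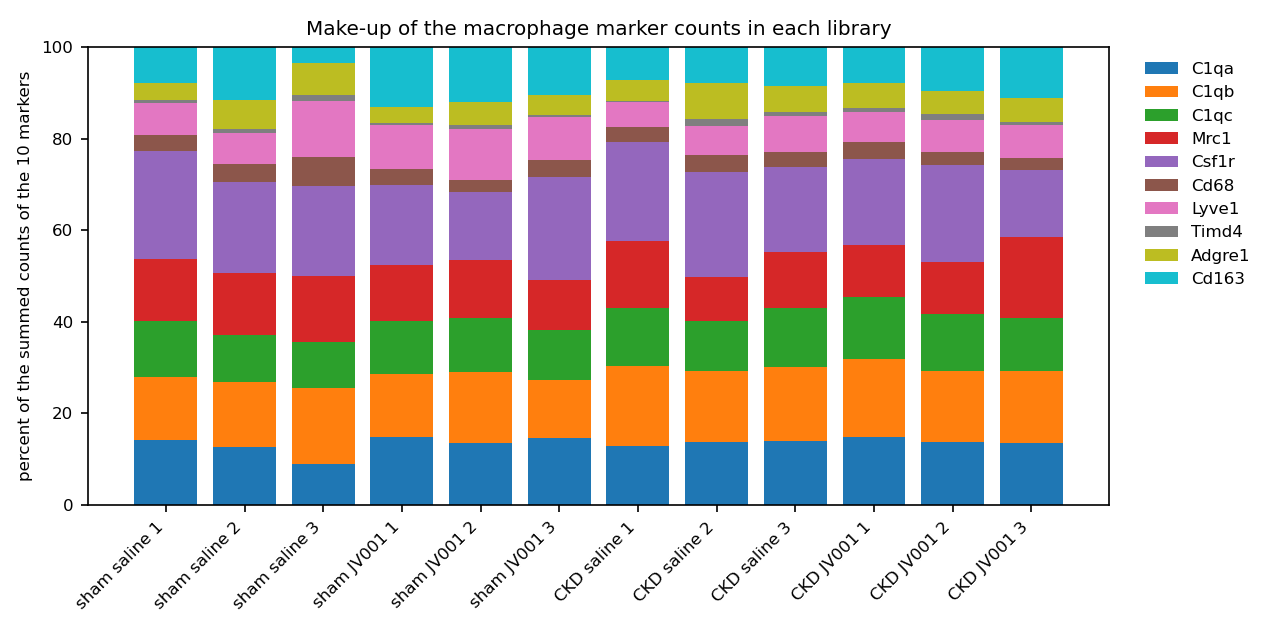
Share of each marker in the summed counts of the 10 macrophage markers, in percent, for each of the 12 libraries. Shares vary less than levels for each marker. C1qc, the steadiest, stays between 10.05% and 13.6%, a 1.35-fold range, against 3.65-fold for Cd163 and 16.2-fold for Timd4. The Mrc1 share of CKD JV001 3 (17.8%) is high and the Cd163 share of sham saline 3 (3.56%) low.

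The disease model was first compared under saline. The 4 comparisons that follow share groups, so their values are not independent of each other. The 10 markers had a median log2 fold change of 1.19 in CKD saline against sham saline (lowest 0.99 for Cd68, highest 1.40 for C1qb), beside 0.01 over all 15004 genes. The fold change was positive in 10 of 10, against 51.4% of all genes. None passed the edgeR quasi-likelihood test with Benjamini-Hochberg adjustment at 0.05 (0 of 10, adjusted p = 0.941 to 0.944, against 0% of all genes), 0 had an unadjusted p under 0.05 with a higher level (2.15% of all genes), and DESeq2 and limma voom with library weights also called 0. Groups overlapped in all 10, against 4.12% of genes with every CKD saline library above every sham saline library. Without sham saline 1 the median was 1.39. Without CKD saline 3 it was 0.08, and Lyve1, Cd163, Cd68 and Mrc1 had values of -0.32, -0.17, -0.16 and -0.10.

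JV001 was then compared with saline within the CKD model. The median log2 fold change was 1.47, beside 0.02 over all genes, and the values of the 10 markers lay between 1.33 for Csf1r and 1.78 for Cd163. All 10 were positive, against 51.4% of all genes. Mrc1 had a log2 fold change of 1.77 (SE 0.79, adjusted p = 0.276, edgeR) and Cd68 of 1.33 (SE 0.60, adjusted p = 0.277). These 2 had an unadjusted p under 0.05, against 9.29% of all genes on the higher side, and none of the 10 passed after adjustment (0 of 10, against 0% of all genes; DESeq2 called 0). No marker had groups without overlap, against 8.21% of all genes, since CKD saline 3 lay inside the CKD JV001 range.

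The values of this comparison moved with that library. Without CKD saline 3 the median was 2.70, and 9 of the 10 markers (all but Timd4) passed the same test with adjusted p between 0.0326 and 0.0414, against 13.2% of all genes tested called higher. Leaving out library 3 of both CKD groups gave 8 of 10 (not Timd4 and Cd163), against 9.77%. Summing libraries 1 and 2 of each CKD group into 1, which keeps library 3 and counts the closest pair of CKD saline once, gave 0 of 10 with a median of 1.28 and a lowest adjusted p of 0.538 (edgeR). With limma voom, which gives each library a weight from its own scatter and was chosen after the data were seen, all 10 were called, against 25.2% of all genes. Nothing in the labels sets CKD saline 3 apart, and both values are given.

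Libraries of the CKD groups that carry the same number deviated together from their group means (correlations of 0.289 to 0.492 over 3 pairs). Library 3 stood apart in both groups, and deviations from a mean cancel within a group. The 3 correlations are thus not independent and cannot show which of the other libraries belong together. Within the same-numbered pairs each of the 10 markers was higher with JV001 in 3 of 3, against 27.7% of all genes. The JV001 to saline ratio of C1qa was 5.25, 4.85 and 2.03 in pairs 1 to 3, that of Csf1r 3.93, 4.46 and 1.66, and that of Mrc1 3.47, 5.66 and 3.03. With the number as a block and all 12 libraries in the fit, the median was 1.58 and 0 of 10 passed (lowest adjusted p = 0.285, edgeR). With the block and only the 6 CKD libraries, a fit chosen after the data were seen, the median was 1.90 and 9 of 10 passed, all but Timd4 (adjusted p = 0.149), with adjusted p from 0.0113 for Mrc1 to 0.0270 for Cd68, against 10.4% of all genes called higher. The same 6 libraries without the block gave 0 of 10 (lowest adjusted p = 0.464). The labels do not say that a number marks a shared animal, litter or day.

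In sham hearts, JV001 against saline gave a median log2 fold change of 0.75, beside -0.01 over all genes. Lyve1, at 1.25 (SE 0.74), and Cd163, at 1.26 (SE 0.88), had the highest values, and Cd68, at 0.42 (SE 0.60), the lowest. All 10 were positive, against 49.2% of all genes. None passed (0 of 10 by edgeR, adjusted p = 0.9997 for each, against 0% of all genes), 0 had an unadjusted p under 0.05 against 1.61% of all genes higher, and DESeq2 and limma voom called 0. The groups overlapped in all 10, against 5.70% of genes without overlap and higher. Without sham JV001 2 the median was 0.10, without sham saline 1 it was 1.05 and without sham saline 3 it was 0.41.

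The disease model was last compared under JV001. CKD JV001 against sham JV001 gave a median log2 fold change of 1.97 with all 12 libraries, beside 0.02 over all genes, with Mrc1 at 2.18 (SE 0.80), Adgre1 at 2.14 (SE 0.70), C1qb at 2.05 (SE 0.71) and Lyve1, the lowest, at 1.35 (SE 0.73). All 10 were positive, against 51.1% of all genes. In 9 of 10, all but Lyve1, every CKD JV001 library lay above every sham JV001 library, which 22.9% of all genes also showed. None of the 10 passed the edgeR quasi-likelihood test (adjusted p = 0.113 to 0.243), in which 0.0200% of all genes (3 genes) were called. An unadjusted p under 0.05 was reached by 7 (all but Lyve1, Timd4 and Cd163), against 14.8% of all genes on the higher side.

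Other fits of the same 2 groups placed some markers past the threshold. DESeq2 called 6 (C1qa, C1qb, C1qc, Csf1r, Cd68 and Adgre1), against 7.46% of all genes called higher. Fitting the 6 JV001 libraries alone called Csf1r and Cd68 (adjusted p = 0.0352 and 0.0494, edgeR), against 4.13%, and leaving out library 3 of both CKD groups called the same 2, against 3.77%. The limma voom fit called 9, all but Cd163, against 16.8%. The markers' direction was positive under each of these fits, and the lowest median with any library left out was 1.56, without CKD JV001 3.

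**Figure D3:**
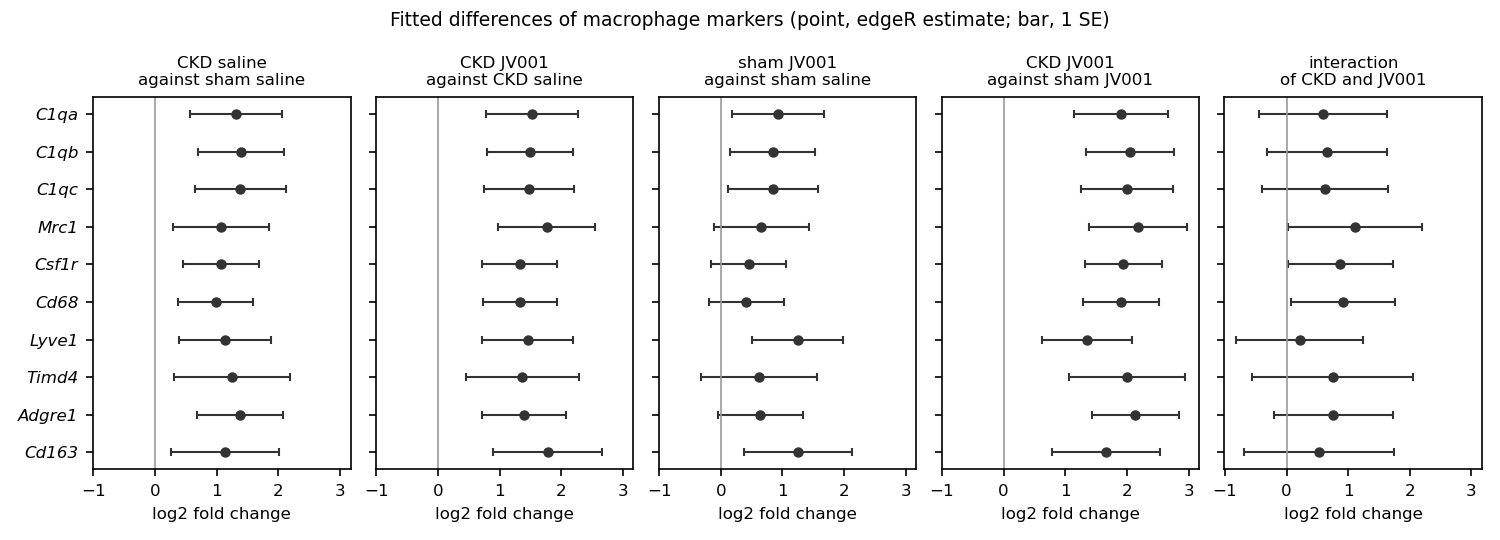
Log2 fold change of each macrophage marker in the 4 comparisons and the interaction, fitted by edgeR on all 12 libraries; points are estimates and bars 1 SE. All estimates are above 0, and CKD JV001 against sham JV001 has a median of 1.97, against 1.47 for CKD JV001 against CKD saline; the interaction bars of most genes reach 0.

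Whether the difference with JV001 was larger in the CKD model than in sham hearts was tested by the interaction term. Its median was 0.70, beside -0.00 over all genes, from 0.21 for Lyve1 (SE 1.03) to 1.11 for Mrc1 (SE 1.09). It was positive in 10 of 10, against 49.9% of all genes, and passed in 0 of 10 (adjusted p = 0.840 to 0.962, edgeR), against 0%. An unadjusted p under 0.05 was reached by 0, against 2.09% of all genes, and DESeq2 and limma voom called 0. The SE was larger than the estimate for every marker but Mrc1, Csf1r and Cd68. Without CKD saline 3 the median was 1.85 and without CKD JV001 3 it was 0.24.

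**Figure D4:**
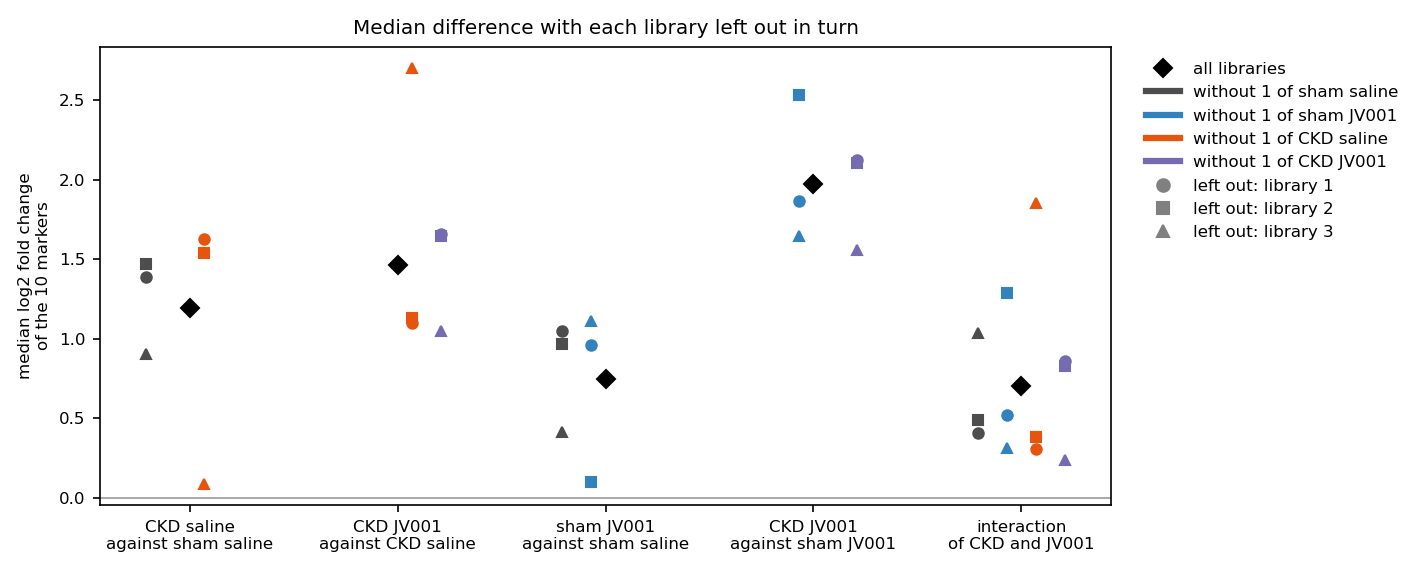
Median log2 fold change of the 10 macrophage markers in each comparison with all libraries (diamond) and with each library left out in turn; colour gives the group of the omitted library and shape its number. Leaving out CKD saline 3 takes CKD saline against sham saline from 1.19 to 0.08 and CKD JV001 against CKD saline from 1.47 to 2.70.

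Genes of the Csf1 receptor axis were examined next, from a list of 12 with the ligands, the receptor subunits of related factors and the transcription factors of the lineage. Between CKD JV001 and sham JV001 edgeR called none, 10 had an unadjusted p under 0.05, DESeq2 called 7 and limma voom 9. The shares of all genes on the higher side, against which this count and those of the lists below are to be read, were 14.8% at an unadjusted p under 0.05, 7.46% by DESeq2 and 16.8% by limma voom, and with lower levels included 27.5%, 12.6% and 29.6%. The median was 2.04 in that comparison and 1.39 for JV001 against saline within CKD, against 0.54 for CKD under saline and 0.11 for JV001 in sham hearts. Csf1, the ligand of the receptor, measured 29.3 to 52.5 CPM in the 6 sham libraries, 36.4, 37.8 and 99.5 CPM in CKD hearts with saline, and 55.0, 58.1 and 899.7 CPM in those with JV001. The value of CKD JV001 3 was thus far above every other library, and the log2 fold change against sham JV001 was 3.27 (SE 0.95, adjusted p = 0.101).

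Among the 12 partners of C1q in the complement pathway, again none was called by edgeR between CKD JV001 and sham JV001, where the median was 1.98. An unadjusted p under 0.05 was reached by 10, DESeq2 called 8 and limma voom 11. C3, the central component, measured 721, 749 and 1243 CPM in CKD JV001 and 146, 340.0 and 144 CPM in sham JV001, which did not overlap (log2 fold change 2.11, SE 0.62, adjusted p = 0.104). Serping1, the C1 inhibitor, had a log2 fold change of 1.97 (SE 0.60, adjusted p = 0.108). Fibroblasts are also known to express these genes.

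Further genes of resident cardiac macrophages numbered 12, and 11 were positive between CKD JV001 and sham JV001 with a median of 1.44. None was called by edgeR, 6 had an unadjusted p under 0.05, DESeq2 called 4 and limma voom 8. F13a1, which encodes a subunit of coagulation factor XIII, measured 58.4, 61.5 and 126 CPM in CKD JV001 and 16.8, 38.8 and 15.6 CPM in sham JV001. Stab1, a scavenger receptor, had a log2 fold change of 1.64 (SE 0.58, adjusted p = 0.124) and Gas6, a bridge to the receptors for dying cells, of 0.73 (SE 0.19, adjusted p = 0.0937). Of the 12 monocyte and recruited macrophage genes, 11 were tested, with a median of 3.07. EdgeR called none, 9 had an unadjusted p under 0.05, and DESeq2 and limma voom each called 4. Ccl2, the chemokine that draws monocytes, measured 5.67, 6.58 and 109.6 CPM in CKD JV001 and 5.04, 7.09 and 2.33 CPM in sham JV001, so libraries 1 and 2 of CKD JV001 lay within the sham JV001 range. Ccr2 itself, named after its values were seen, had raw counts of 56, 32 and 184 in CKD hearts with JV001 and 12, 22 and 27 with saline. Its counts in sham hearts were 17, 43 and 13 with JV001 and 2, 9 and 6 with saline.

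The balance between the 10 markers and the monocyte genes differed between libraries. Summed marker CPM divided by summed CPM of the monocyte list was 11.6 and 12.3 in CKD JV001 1 and 2 and 2.94 in CKD JV001 3, and it lay between 7.34 and 14.9 in the other 9 libraries. In CKD JV001 the list summed to a mean of 100.7 CPM, of which the chemokines Ccl2 and Ccl7 held 40.6 and 27.1 CPM. The ratio thus rests largely on these chemokines and does not count monocytes. The 13 general myeloid genes, among them Lyz2 and Ctss, tracked the markers more closely, with the same ratio between 0.724 and 1.31 in all 12 libraries. Between CKD JV001 and sham JV001 edgeR called none of them, although all 13 had an unadjusted p under 0.05, DESeq2 called 11 and limma voom 13. Lyz2, the lysozyme of macrophages, measured 234, 234 and 327 CPM in CKD JV001 and 45.2, 96.5 and 30.5 CPM in sham JV001 (log2 fold change 2.21, SE 0.79, adjusted p = 0.127). The 11 activated and lipid-handling genes had a median of 1.87, with none called by edgeR, 8 at an unadjusted p under 0.05, 4 called by DESeq2 and 9 by limma voom. Among them were Cd14 at 2.42 (SE 0.87, adjusted p = 0.127) and Cd9 at 1.45 (SE 0.60, adjusted p = 0.158).

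Lysosome genes and receptors for dying cells, which many cell types use, had smaller differences than the markers. The 12 lysosome genes summed to between 2254 and 2930.0 CPM in all libraries and had a median of 0.24 between CKD JV001 and sham JV001. Ctsd, cathepsin D, had a log2 fold change of -0.19 (SE 0.26, adjusted p = 0.626) and Lamp1 of -0.06 (SE 0.15, adjusted p = 0.820). The 10 tested receptors for dying cells had a median of 0.55, with Lrp1 at 1.75 (SE 0.58, adjusted p = 0.116) and Cd36 at -0.13 (SE 0.16, adjusted p = 0.599). EdgeR called none of either list, with 3 lysosome genes and 6 receptors at an unadjusted p under 0.05. DESeq2 called 3 and 6, and limma voom 5 (4 higher, 1 lower) and 5.

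Markers of other cell types moved with the macrophage markers over the same libraries. The 7 fibroblast markers summed to 227 to 473 CPM in sham JV001 and 921 to 1263 CPM in CKD JV001, and the 6 endothelial markers to 784 to 859 and 1631 to 1858 CPM. All of these genes were above 0 in every library. Between CKD JV001 and sham JV001 edgeR called none of them. An unadjusted p under 0.05 (edgeR) with a higher level was reached by 6 fibroblast and 2 endothelial markers, against 14.8% of all genes. DESeq2 called 5 and 1 higher, against 7.46%, and limma voom 7 and 6, against 16.8%. CKD saline 3 resembled CKD JV001 here too, with 786 CPM of fibroblast and 2067 CPM of endothelial markers, against 209 and 211, and 623 and 598, in CKD saline 1 and 2. The 7 neutrophil markers summed to 0.570 to 5.58 CPM in sham libraries, 3.15, 4.16 and 69.1 CPM in CKD hearts with saline, and 14.5, 14.1 and 297 CPM in those with JV001, with Ly6g at 0 in 10 of the 12 libraries, Mmp8 in 5, Retnlg in 3, Cxcr2 in 2 and S100a8 in 1. The 5 erythroid genes, all above 0 in every library, summed to 10.3 to 57.1 CPM in sham libraries, 47.6, 52.9 and 664 CPM in CKD hearts with saline, and 144, 135 and 332 CPM in those with JV001. Their median log2 fold change was 2.92 between CKD JV001 and sham JV001 and 2.97 between CKD saline and sham saline. EdgeR and DESeq2 called 0 of 5 in both. An unadjusted p under 0.05 (edgeR) with a higher level was reached by 5 and 4, against 14.8% and 2.15% of all genes. By limma voom 5 were called in the first comparison, against 16.8% of all genes higher, and 0 in the second. Of the 6 neutrophil markers tested, 6 had an unadjusted p under 0.05 (edgeR) with a higher level in the first comparison. EdgeR and DESeq2 called 0 of them there, and limma voom called 4 higher. The 8 ventricular cardiomyocyte markers summed to 38940 CPM in CKD saline 3 and 42558, 43097 and 19474 CPM in CKD JV001, below the 57933 to 77849 CPM of the other 8 libraries. The part of these other cells, and of the cardiomyocyte share, in the macrophage values was not tested.

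Relative to fibroblast markers the macrophage markers differed less. Their summed CPM divided by that of the fibroblast list was 0.322, 0.429 and 0.260 in sham JV001 and 0.359, 0.348 and 0.575 in CKD JV001, which overlapped. Under saline the ratio was 0.213, 0.301 and 0.217 for sham and 0.351, 0.325 and 0.438 for CKD, which did not overlap. Per CPM of endothelial markers it was 0.122, 0.236 and 0.0754 in sham JV001 and 0.203, 0.196 and 0.391 in CKD JV001, which also overlapped. Per CPM of smooth muscle and pericyte markers it was 0.0777 to 0.244 in sham JV001 and 0.320 to 0.348 in CKD JV001, without overlap. Per CPM of lymphatic endothelial markers it was 0.714 to 2.38 in sham JV001 and 2.82 to 5.19 in CKD JV001, again without overlap.

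**Figure D5:**
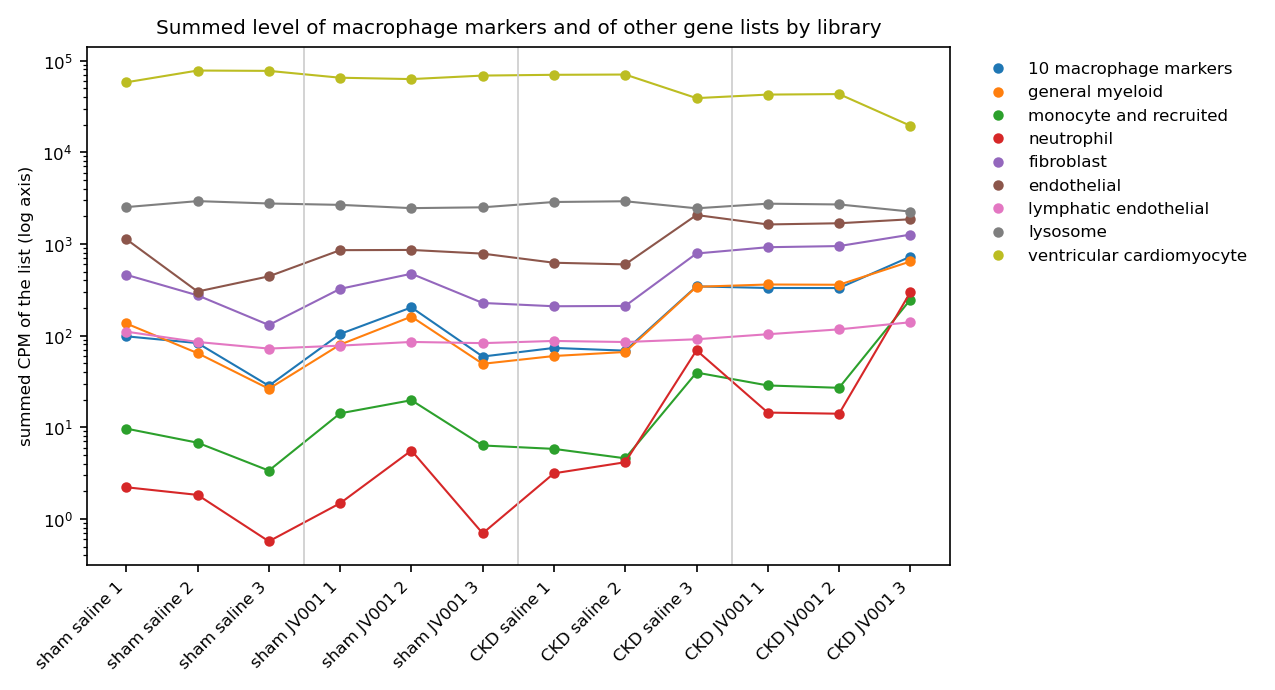
Summed CPM, on a log axis, of the 10 macrophage markers and of 8 other gene lists in each of the 12 libraries; vertical lines divide the groups. The macrophage and general myeloid lines run together, the fibroblast and endothelial lines are high in the same 4 libraries (CKD saline 3 and all CKD JV001), and the ventricular cardiomyocyte line is lowest in them.

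Genes with the profile most like the markers were ranked by the root mean square difference, in log2 CPM over the 12 libraries, between each gene's centred profile and the mean centred profile of the 10. Among 9644 other genes with a mean of at least 5 CPM, F13a1 and Ctss were nearest, at 0.183 and 0.184, then Laptm5 at 0.210 and Il10ra at 0.251. Cd74 followed at 0.258, Arhgap45 at 0.269, H2-Eb1 at 0.278 and Apoe at 0.278. The markers themselves lay between 0.171 for C1qb and 0.712 for Timd4, with Cd163 at 0.485, so several other genes lay nearer to the mean profile than some of the markers did. These distances describe 12 libraries that share their make-up of cells, and they carry no test.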

How the data were processed

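RNA-seq libraries of isolated cardiomyocytes were sequenced in 4 groups of 3, and the authors deposited raw counts per gene and FPKM values in whole-series tables. The submitters' processing notes name HISAT2, HTSeq, fastp and build GRCm39. Versions, annotation, counting mode and strand are not stated in the sources used here. Column names were matched to samples by the initials of the group and the number, C being read as the model that the series text calls CKD.

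Counts were scaled by TMM, filtered with filterByExpr (minimum count 10) and fitted with the edgeR 4.0.16 quasi-likelihood test (R 4.3.3) on all 12 libraries as 4 group means, with Benjamini-Hochberg adjustment over 15004 genes at 0.05. SE is the log2 fold change divided by the square root of F. The log2 CPM used for profiles had a prior count of 2. The fit was tested on simulated data whose spread was set in advance and not taken from these libraries. Recovery there does not measure the power of the comparisons here. DESeq2 1.42.0, limma 3.58.1, other scalings, filters, a replicate block and the omission of libraries were alternatives. The named genes are all 10 markers, the 4 genes of highest mean CPM of each pathway or cell list the text describes, and the 8 other genes nearest in profile; some genes of these lists are not reported here. The markers and lists were chosen with earlier results of these data known.

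Cells were described against 12 cell type lists. Besides those in the report, the summed CPM over the libraries ran from 609 to 2268 for smooth muscle and pericytes, 10.5 to 73.5 for dendritic cells, 0.216 to 3.69 for T and NK cells, 0.444 to 10.01 for B cells, 3.34 to 20.3 for mast cells and 1543 to 4481 for immediate early genes. Deviations of same-numbered libraries from their group means correlated at 0.289 to 0.492 in the 3 pairs of the CKD groups, all over 0.1. The block fitted to the CKD groups alone was chosen from these same values. They do not establish pairing, since the 3 values are not independent and library 3 stood apart in both groups. Over all groups the correlations ran from -0.39 to 0.49, over 0.1 in 6 of 18 pairs. Nothing in the labels gives the pairing.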

Additional observations from a re-analysis of the deposited data

How the results depend on the processing

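In 5 comparisons 0 markers were called with all libraries. The alternatives that called any were, for CKD JV001 against CKD saline, leaving out library 3 of both CKD groups (8), limma voom with library weights (10) and the replicate block with only the CKD groups (9), and, for CKD JV001 against sham JV001, DESeq2 (6), only the groups of the contrast (2), leaving out library 3 of both CKD groups (2) and limma voom (9); the cause was not tested. With each library left out in turn, the number called ranged between 0 and 9 for CKD JV001 against CKD saline and stayed at 0 in the other comparisons. With all 12 libraries the replicate block called 0 in each comparison (own number best in 9 of 36). The median of CKD JV001 against CKD saline was above that of CKD JV001 against sham JV001 without library 3 of both CKD groups (2.23 and 1.55) and in limma voom (2.20 and 1.65), and below it with all libraries.

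Directions depended on single libraries. For CKD saline against sham saline, leaving out library 3 of both CKD groups gave Cd163 -0.17, Cd68 -0.16, Lyve1 -0.32 and Mrc1 -0.10, and single omissions ranged from -0.17 to 1.64 for Cd163, -0.16 to 1.37 for Cd68, -0.32 to 1.56 for Lyve1 and -0.10 to 1.51 for Mrc1. limma voom gave Lyve1 -0.01 and Timd4 -0.45 there. In sham JV001 against sham saline the omissions ranged from -0.18 to 1.03 for Adgre1 and -0.59 to 1.03 for Timd4, and for the interaction from -0.16 to 1.85 for Cd163 and -0.32 to 1.69 for Lyve1. No marker changed direction between CKD JV001 and either CKD saline or sham JV001.

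Over all genes, CKD JV001 against sham JV001 had 3 calls with all libraries, 1768 by DESeq2, 4434 by limma voom, 792 with only its groups, 1433 without library 3 of both CKD groups, 12 with a filter of 1 CPM in 3 libraries, 7 with RLE factors, 5 with no filter, 64 and 7 by limma on log2(FPKM + 1) and log2(FPKM + 0.1), and 0 with the replicate block. CKD JV001 against CKD saline had 0 with all libraries, 46 by DESeq2, 6738 by limma voom, 3043 without library 3 of both groups, 2850 with the replicate block and only the CKD groups, and 3287 without CKD saline 3. CKD saline against sham saline had 48 by DESeq2 and 5 by limma voom, sham JV001 against sham saline 2 and 10, and the interaction 0 and 20. Timd4 had 2 to 143 counts a library, the fewest of the markers.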
